A study of Homo sapiens with 62 samples.

Results

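CHCHD2 and its paralogue CHCHD10 were followed through every library of a study of human embryonic stem cells (hESC) and organoids. They are 2 of the 37415 genes in the deposited expression table and were taken from it by their gene symbols. CHCHD2 was selected on its TPM values in these same libraries, which were known to fall into high and near-zero groups, so its levels are given as a description with no test. The unit is TPM, a length-scaled share of transcripts that adds up to 1000000 in each library and holds no record of sequencing depth.

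Both genes encode small proteins with a CHCH fold, in which paired cysteine motifs (the twin CX9C motif) form disulphide bonds once the protein has entered the intermembrane space of mitochondria through the CHCHD4 relay. CHCHD2 and CHCHD10 bind each other and lie close to MICOS, the complex that shapes the inner membrane cristae, and CHCHD2 is also known in the nucleus as an activator of COX4I2, an oxygen-responsive subunit of respiratory complex IV. Inherited variants of CHCHD2 are linked to Parkinson's disease and those of CHCHD10 to motor neuron disease and frontotemporal dementia, and the CHCHD2 transcript is known to vary between human pluripotent stem cell lines.

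The study measured polyA RNA in 62 libraries, 31 groups of 2, all from the hESC line WIBR3. Pluronic F-127 (PF-127) is a non-ionic polymer surfactant, and NEAT1 is a long non-coding RNA. WT organoids were cortical (SPIN day 60, Chip day 54 and PN96 day 53), nephron (PN96 day 7), lung (PN96 day 20) and hepatic (Chip day 17, and PN96 day 21 and day 17). SPIN, Chip and PN96 are the labels of the culture condition. A second set held NEAT1-/- cells of 2 clones beside CTR cells, each as hESC and as cortical (day 19), nephron (day 13), hepatic (day 21) and lung (day 19) organoids, all under PN96. Each NEAT1-/- clone is a single line, and the labels give CTR as a genotype without saying how it differs from WT. The remaining set held WT hESC with or without PF-127 at 0, 1, 4 and 24 h, where those without carry the treatment label NT96.

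The 2 libraries of a group correlated at r = 0.969 to 0.993 over log2(TPM + 1). Nothing says that they came from separate cultures, so every spread and p-value here covers only these libraries. NEAT1, the targeted gene, lay at 0 to 0.869 TPM in the NEAT1-/- libraries and at 1.78 to 44.3 TPM in CTR. hESC carried POU5F1 at group means of 139.8 TPM or more, cortical groups PAX6 at 29.8 TPM or more and hepatic groups AFP at 2767 TPM or more. In the lung groups SFTPC (0.045 TPM or less) and NKX2-1 (1.43 TPM or less) were absent or nearly so. FOXA2 had group means of 8.05 to 18.5 TPM there, against 3.27 TPM or less in hESC and 11.7 to 37.9 TPM in the hepatic groups. SOX9 had 19.8 to 35.3 TPM in lung and 5.53 to 57.3 TPM in hESC. EPCAM had 180.4 to 260.3 TPM in lung and 296.9 to 422.1 TPM in hESC. In the nephron groups PAX2 had group means of 12.3 TPM or more, PAX8 of 22.1 TPM or more and WT1 of 12.3 TPM or more at day 13, against 3.56, 0.281 and 0.068 TPM in WT at day 7. The podocyte gene NPHS1 reached 1.28 TPM at most. In bulk RNA, fewer cells that carry a transcript and less of it per cell cannot be told apart.

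CHCHD2 (ENSG00000106153.13) lies on chromosome 7 from base 56101569 to 56106576 on the minus strand of GRCh38 (GENCODE release 29). A stretch upstream of all its annotated transcripts is shown because it lies upstream of CHCHD2, the member whose level splits the libraries. It is RefSeq sequence of GRCh38.p14 from the minus strand, chr7:56106577-56106726, and covers bases 250 to 101 before the RefSeq start. Capitals mark CG dinucleotides.
CHCHD2 upstream: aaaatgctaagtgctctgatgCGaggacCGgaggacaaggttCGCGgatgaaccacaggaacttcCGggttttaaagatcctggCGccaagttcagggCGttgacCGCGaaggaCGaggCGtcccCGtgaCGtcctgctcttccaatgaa
The 150 bases hold 13 CG dinucleotides. The median of the same window over 35116 RefSeq promoters is 5, and 24.2% of them hold at least 13. Searched on both strands, the letters CCGGAAG, which ETS factors bind, occur once here and in 3.19% of those windows. The letters TGACGT, part of a cyclic AMP response element, occur once here and in 2.93% of them. The NRF1 motif was not found in these letters and is held by 1.81% of the windows. The 2 matches do not overlap. DNA methylation and factor binding are not analysed here.

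CHCHD2 was high in 7 of the 8 WT organoid groups and at or near 0 in every other group. In the 14 libraries of those 7 groups it ran from 18.2 to 207.6 TPM with a median of 94.2 TPM. In the other 48 libraries it ran from 0 to 1.63 TPM with a median of 0.188 TPM, was listed at 0 in 23, and reached 1 TPM in 4. No library fell between 1.63 and 18.2 TPM.

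**Figure D1:**
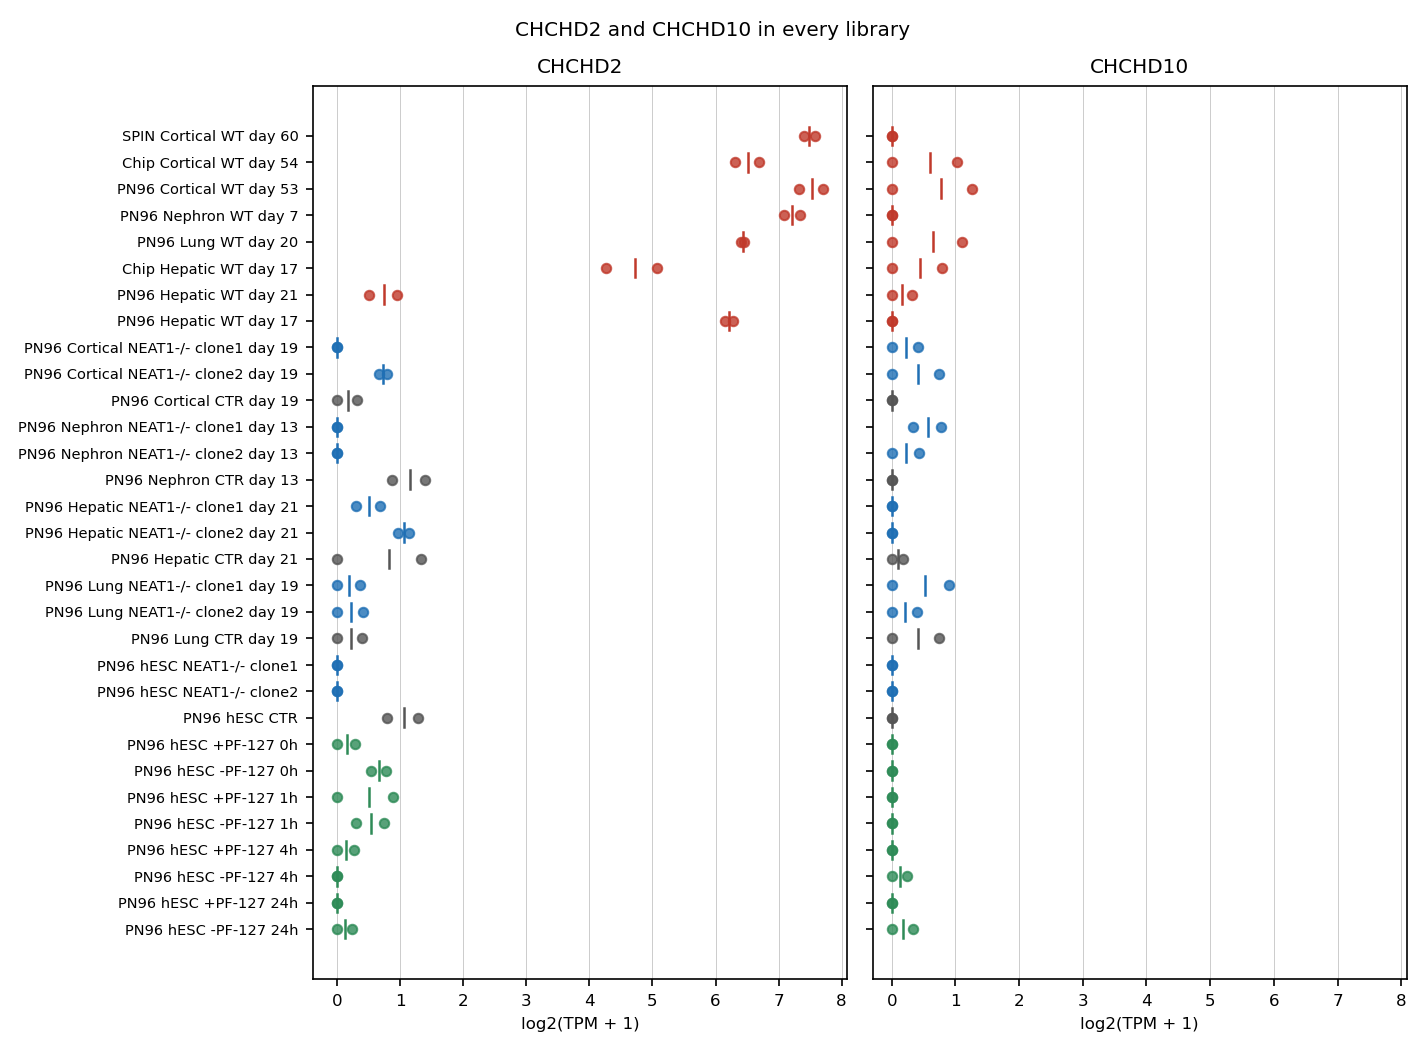
CHCHD2 (left) and CHCHD10 (right) as log2(TPM + 1) on the horizontal axes, with the 31 groups down the page. Points are libraries, 2 per group, and the vertical mark is the group mean; red is WT organoids, blue NEAT1-/- clones, grey CTR and green the WT hESC with or without PF-127. CHCHD2 stands between 18.2 and 207.6 TPM in 7 WT organoid groups and at 1.63 TPM or less elsewhere, and CHCHD10 stays at 1.40 TPM or less in every library.

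The WT cortical and nephron organoids held the most CHCHD2. SPIN cortical organoids had 168 and 190 TPM, Chip cortical organoids 78.4 and 102 TPM, and PN96 cortical organoids 207.6 and 159.5 TPM. WT nephron organoids at day 7 had 160.1 and 135.1 TPM and WT lung organoids at day 20 had 84.0 and 86.6 TPM. By group mean the order was PN96 cortical (184 ± 34.0 TPM, SD, n = 2), SPIN cortical (179 ± 15.7), nephron (148 ± 17.7), Chip cortical (90.2 ± 16.6), lung (85.3 ± 1.88), PN96 hepatic day 17 (73.4 ± 4.59) and Chip hepatic (25.4 ± 10.1). Of neighbours in that order, PN96 cortical overlapped SPIN cortical and Chip cortical overlapped lung. The other neighbours did not overlap. With TPM rescaled by median-of-ratios size factors the nephron group came first at 140.7 TPM, SPIN cortical had 139.8 and PN96 cortical 137.7, and Chip cortical fell behind PN96 hepatic day 17, so the order within the high groups depends on the scaling. The groups at or near 0 were the same 24 under both scalings.

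The hepatic organoids held the sharpest contrast within one tissue label. Under PN96, CHCHD2 had 0.426 and 0.920 TPM at day 21, against 70.2 and 76.7 TPM at day 17. The groups did not overlap, and both day 21 values are too near 0 for a fold to be read. Chip hepatic organoids at day 17 had 18.2 and 32.5 TPM, so their mean was 2.90-fold lower than under PN96 at the same day, again with no overlap. CTR hepatic organoids at day 21 had 0 and 1.52 TPM, which spans the WT values of that day.

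The same split appeared wherever a WT organoid could be set beside a CTR organoid of another day. CTR lung organoids at day 19 had 0 and 0.315 TPM, against 84.0 and 86.6 TPM in WT lung organoids at day 20. These groups did not overlap, and no fold is given against a group with a library listed at 0. CTR nephron organoids at day 13 had 0.831 and 1.63 TPM, beside 160.1 and 135.1 TPM in WT nephron organoids at day 7. CTR cortical organoids at day 19 had 0 and 0.250 TPM, beside the 159.5 TPM or more of WT PN96 cortical organoids at day 53. Genotype label and day differ together in these pairs and cannot be told apart.

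The WT label alone did not mark the libraries with CHCHD2. The 16 WT hESC libraries with or without PF-127 ran from 0 to 0.852 TPM, and 8 of them were listed at 0. With PF-127 the group means were 0.111 TPM at 0 h, 0.426 at 1 h, 0.0984 at 4 h and 0 at 24 h. Without it they were 0.585, 0.452, 0 and 0.0894 TPM at the same times. These ranges overlapped at every time except 0 h, where the 2 libraries with PF-127 (0 and 0.222 TPM) lay below the 2 without (0.712 and 0.457 TPM), all under 1 TPM. Over all 22 hESC libraries of the study the highest value was 1.43 TPM, in CTR.

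The NEAT1-/- clones did not carry CHCHD2 in any cell type. Their 20 libraries ran from 0 to 1.19 TPM, against 0 to 1.63 TPM in the 10 CTR libraries. Clone 1 was listed at 0 in hESC, cortical and nephron cells and reached 0.601 TPM at most, in hepatic organoids. Clone 2 was listed at 0 in hESC and nephron cells and reached 1.19 TPM, also in hepatic organoids. The authors' deposited tables of each clone against CTR hold a row for CHCHD2 in 6 of 10, with a base mean of 3.35 to 5.53. There the log2 fold change in the authors' deposited tables ran from -2.32 in cortical clone 1 (standard error 2.30) to 2.46 in cortical clone 2 (standard error 1.85).

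Markers of pluripotent and stromal cells were set beside these levels. POU5F1, NANOG, SOX2, LIN28A and DPPA4 together had 1618 TPM in hepatic WT day 21 organoids, against 1042 TPM at day 17, and 2451 to 3251 TPM in the hESC groups. In lung organoids the same sum was 1555 TPM in CTR, against 1706 TPM in WT. Within it POU5F1 had 43.88 TPM in CTR and 77.38 TPM in WT, NANOG 45.39 and 76.51, and DPPA4 333.9 and 455.2. SOX2 had 486.9 TPM in CTR and 496.5 TPM in WT, and LIN28A went the other way, at 644.8 and 600.6. CHCHD2 was at 0.315 TPM or less in CTR lung organoids and at 84.0 TPM or more in WT. Stromal markers (COL1A1, COL1A2, COL3A1, PDGFRB and DCN) summed to 2093 TPM in hepatic WT day 21 organoids, against 3347 TPM at day 17. In the cortical and nephron groups, POU5F1 had 2.87 TPM or less, both where CHCHD2 was high and where it was near 0. SPIN cortical organoids also stood apart in other lists, with stromal collagens and their partners at 1425 TPM in sum, against 57.02 TPM in PN96 cortical organoids. Most of that sum was COL3A1, at 1217 TPM in SPIN and 6.723 TPM in PN96. COL1A1 had 27.25 TPM in SPIN and 13.63 TPM in PN96, COL1A2 113.9 and 13.39, and DCN 44.77 and 0.4093. PDGFRB was not higher, at 21.86 TPM in SPIN and 22.86 TPM in PN96. The part of cell makeup in the CHCHD2 levels was not tested.

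CHCHD2 has near copies in the genome, which makes its value uncertain. GENCODE release 29 names 10 CHCHD2 pseudogenes, and the best alignment of each to an annotated CHCHD2 transcript of 901 bases spans 333 to 456 bases at 76.9% to 97.8% identity. The closest were CHCHD2P6 (97.8% over 447 bases) and CHCHD2P9 (96.5% over 456 bases). The pseudogenes are not analysed here, and how the authors counted reads that match several places is not given in the sources used here.

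CHCHD10 (ENSG00000250479.9) gave no usable reading. It is on chromosome 22 from base 23765834 to 23768443, minus strand, and was listed at 0 in 46 of the 62 libraries. Its highest values were 1.40 TPM in a PN96 cortical library, 1.14 TPM in a WT lung library and 1.04 TPM in a Chip cortical library, and the other library of each of these groups was listed at 0. In the 14 libraries with high CHCHD2 it ran from 0 to 1.40 TPM, and in the other 48 from 0 to 0.868 TPM. Both ranges start at 0 and overlap, and no group mean reached 1 TPM.

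The genes next to CHCHD10 at higher coordinates were also near 0, and some of them are used by every cell. On the other side C22orf15 had a median of 0.332 TPM and reached 1.63 TPM, and VPREB3 had a median of 1.204 TPM and reached 9.98 TPM. MMP11, a matrix protease whose annotated start overlaps that of CHCHD10 by 218 bases, was listed at 0 in all 62 libraries. SMARCB1, a core subunit of SWI/SNF chromatin remodelling complexes, had a median of 0.0226 TPM and a highest value of 0.0917 TPM. MIF, an abundant cytokine in most cells, was listed at 0 in 61 libraries and reached 0.282 TPM, and the sugar transporter SLC2A11 reached 0.140 TPM. DDTL reached 0.154 TPM. Farther out the values returned, with medians of 5.74 TPM for ZNF70, 33.3 TPM for CABIN1 and 39.4 TPM for SPECC1L, and GSTT2B, which lies between MIF and DDTL, had a median of 6.30 TPM. CHCHD10 is therefore reported only as listed at or near 0, and its level and its relation to CHCHD2 cannot be read from this table. The cause was not tested.

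CHCHD2's own surroundings were measured throughout. CCT6A, a chaperonin subunit, had 135.1 to 416 TPM over the 62 libraries, and the sulfatase-modifying factor SUMF2 had 17.0 to 80.3 TPM. PHKG1, a phosphorylase kinase subunit, had 3.53 to 19.9 TPM and NUPR2, the nearest gene upstream of CHCHD2, 1.46 to 14.1 TPM. PSPH, which completes serine synthesis, had 18.8 to 174 TPM, ZNF713 0.904 to 8.71 TPM, the ribosomal protein gene MRPS17 17.3 to 44.3 TPM and NIPSNAP2 21.8 to 61.9 TPM. None of these 8 was listed at 0 in any library, whereas CHCHD2 was in 23.

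**Figure D2:**
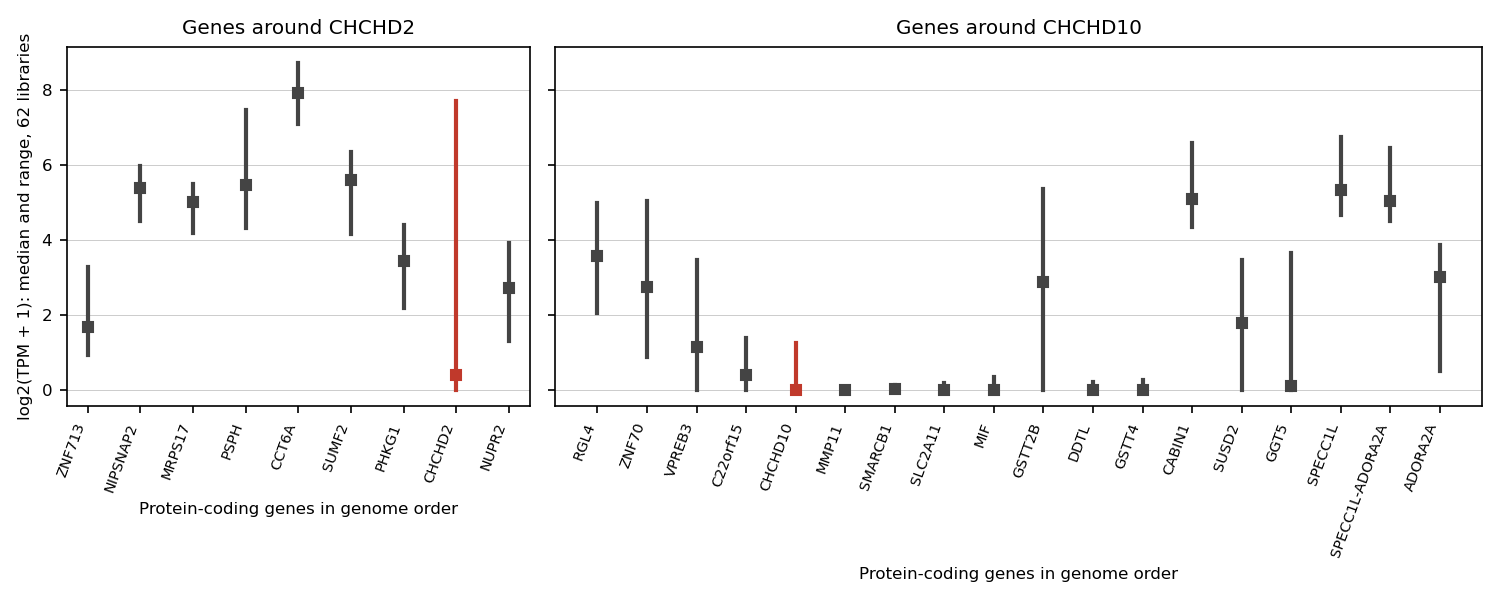
Protein-coding genes around CHCHD2 (left) and CHCHD10 (right) in genome order, with log2(TPM + 1) on the vertical axis. Squares are medians and bars the range over the 62 libraries, with the named member in red. CHCHD2 alone among its neighbours spans 0 to 207.6 TPM, while CHCHD10 lies among genes at or near 0 between C22orf15 and CABIN1, with GSTT2B as the exception.

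Comparisons of CHCHD10 and of the mitochondrial lists used limma on log2(TPM + 1), with Benjamini-Hochberg adjustment over all genes tested and a call at an adjusted p under 0.05. CHCHD10 passed the filter of 1 TPM in 2 libraries only in the fit of the 16 WT organoid libraries, and there only through the 3 single libraries named above. Its values in the 4 comparisons of that fit are given for completeness, and nothing about its level is read from the fact that none was called. CHCHD10 averaged 0 TPM in SPIN cortical organoids and 0.700 ± 0.991 TPM in PN96 (SD, n = 2 each), a log2 change of -0.63 (standard error 0.48, limma adjusted p = 0.326). The change was -0.12 for Chip against PN96 cortical organoids (limma adjusted p = 0.968), 0.40 for Chip against PN96 hepatic organoids (0.673) and 0.16 for hepatic WT day 21 against day 17 (0.930), with the same standard error. In the other 19 comparisons CHCHD10 did not pass the filter and has no test.

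Hepatic WT organoids had under 1 TPM of CHCHD2 at day 21, against 70.2 TPM or more at day 17, and none of the 8 lists of related genes held a called member. Over all genes, 1.33% were called (327 of 24512, limma), 0.771% higher and 0.563% lower. Of 21 other twin CX9C and CHCH-domain proteins, all tested, none was called, and their median log2 change was 0.18, against 0.03 over all genes tested. CHCHD1, a subunit of the mitochondrial ribosome, had 46.3 ± 2.06 TPM at day 21 and 51.4 ± 2.50 TPM at day 17 (SD, n = 2 each). CHCHD3, a MICOS subunit, had 78.6 ± 11.7 TPM at day 21 and 65.6 ± 0.277 TPM at day 17. COX4I2, the known target of nuclear CHCHD2, had 13.8 and 8.48 TPM at day 21, against 16.02 and 9.82 TPM at day 17, a log2 change of -0.20 (standard error 0.34, limma adjusted p = 0.847). The values of COX4I2 overlapped. The 11 MICOS genes had a median change of 0.08, the 12 nuclear complex IV subunits 0.01, the 10 partner genes 0.13 and the 13 tested stress-response genes 0.12. The mitochondrial DNA-encoded subunits MT-CO1, MT-CO2 and MT-CO3 had a median of -0.44, with none called. MT-CO1 had 18446 ± 1538 TPM at day 21 and 25062 ± 141 TPM at day 17. Without day 21 replicate 1 or replicate 2, 1 list gene was called, and the calls over all genes fell to 14 without day 17 replicate 1 and 30 without day 21 replicate 2.

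CTR lung organoids at day 19 against WT lung organoids at day 20 called 0.0051% of 19625 genes (limma), and no gene other than CHCHD2, which was selected on these values and for which no test is read. With 4 libraries in this fit, 4227 genes had an unadjusted p under 0.05. None of the list genes was called. CHCHD4, the import receptor for twin CX9C proteins, had 12.02 ± 0.956 TPM in CTR and 28.2 ± 1.71 TPM in WT (SD, n = 2 each), a log2 change of -1.17 (standard error 0.22, limma adjusted p = 0.113). The groups did not overlap in CHCHD4. C1QBP, a mitochondrial matrix protein that binds CHCHD2, had 125 ± 19.5 TPM in CTR and 197 ± 4.29 TPM in WT (limma adjusted p = 0.137). COX4I2 averaged 0.727 ± 1.03 TPM in CTR and 2.11 ± 0.125 TPM in WT. The counts of this comparison are unstable: without CTR replicate 1 there were 3619 calls and 12 among the lists, without CTR replicate 2 there were 2363 and 11, without WT replicate 1 there were 55 and 1, and without WT replicate 2 there were 21 and 0.

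Chip hepatic organoids had 2.90-fold less CHCHD2 than PN96 organoids of the same day, and 6 list genes were called between them. The 8 lists held 21, 11, 12, 3, 10, 13, 8 and 3 tested genes. Over all genes 9.05% were called, 0.93% higher and 8.12% lower (limma). Beside that share the 6 calls are not read as a result about the lists. COX4I2 fell to 2.0 and 3.39 TPM under Chip, against 16.02 and 9.82 TPM under PN96. Its log2 change was -1.90 (standard error 0.34, limma adjusted p = 0.0082), and the groups did not overlap. It was the only called member among 12 nuclear complex IV subunits. Over the other groups COX4I2 did not follow CHCHD2. It had 24.3 and 25.4 TPM in CTR nephron and 26.3 and 25.1 TPM in CTR hepatic organoids, where CHCHD2 was at 1.63 TPM or less. In WT nephron organoids, with CHCHD2 at 135.1 TPM or more, COX4I2 had 12.5 and 9.36 TPM. In WT cortical organoids, with CHCHD2 at 78.4 TPM or more, it ran from 0 to 1.75 TPM. Between Chip and PN96 hepatic organoids at day 17 the stromal markers differed in the same direction as COX4I2, at a sum of 1401 TPM under Chip and 3347 TPM under PN96. Over all hepatic groups the stromal sum did not rank with COX4I2. CTR hepatic organoids, with the 26.3 and 25.1 TPM of COX4I2 given above, had a stromal sum of 2760 TPM. The cardiac muscle markers summed to 310.9 TPM under Chip and 916.7 TPM under PN96. Most of that sum was ACTC1, at 295.2 TPM under Chip and 890.2 TPM under PN96. TNNT2 was also lower, at 7.396 TPM under Chip and 24.54 TPM under PN96. MYH6 went the other way, at 8.322 TPM under Chip and 1.997 TPM under PN96. All 5 stromal and all 3 cardiac markers were above 1 TPM in both groups, and their part in the COX4I2 result was not tested. MT-CO2 rose to 44162 and 45386 TPM under Chip, against 24767 and 24785 TPM under PN96, and MT-CO3 rose likewise, by log2 changes of 0.85 and 0.82 (limma adjusted p = 0.0132 and 0.0139). STOML2, an inner-membrane scaffold protein that binds CHCHD2, rose by 0.53 on the log2 scale (limma adjusted p = 0.0056). PSAT1 of serine synthesis rose by 0.74 and ZNF70, a neighbour of CHCHD10, fell by 0.93 on that scale. None of the 21 CX9C and CHCH proteins or the 11 MICOS genes was called; IMMT, the MICOS core, had 78.7 ± 1.15 TPM under Chip and 76.3 ± 5.51 TPM under PN96 (SD, n = 2 each). The median of all genes was -0.19 here and 0 after rescaling, where 43.8% of the calls were higher instead of 10.3%. Rescaled values called 13 list genes, 4 higher and 1 lower among the nuclear complex IV subunits. Leaving out 1 library left 1 list gene called without Chip replicate 1 or PN96 replicate 1, 2 without Chip replicate 2 and 4 without PN96 replicate 2.

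Chip cortical organoids held 2.04-fold less CHCHD2 than PN96 cortical organoids, and the list named mitochondrial stress response had the most calls. The name is only that of the list. Whether the change arose in mitochondria, or bears on CHCHD2, was not tested. Over all genes 1.57% were called, 0.93% higher and 0.636% lower (limma), and 6 of 13 tested stress-response genes were higher and none lower. Their median log2 change was 0.83, against 0.05 over all genes tested. CHAC1, a glutathione-degrading enzyme, had 107.5 and 122 TPM under Chip, against 23.2 and 22.3 TPM under PN96, a log2 change of 2.29 (limma adjusted p = 0.0063). TRIB3, a pseudokinase induced by ATF4, had 106 and 112 TPM under Chip, against 28.1 and 32.0 TPM under PN96, a change of 1.83 (limma adjusted p = 0.0199). PSAT1 and ASNS, which make serine and asparagine, both rose by 1.43 to 1.44 on the log2 scale. In these 4 genes no Chip value overlapped a PN96 value. ATF4 and DDIT3 of the same list were not called. PSPH, in the neighbourhood of CHCHD2 on chromosome 7 and itself a serine synthesis gene, had 52.9 and 49.5 TPM under Chip, against 27.5 and 29.9 TPM under PN96 (log2 change 0.81, limma adjusted p = 0.0147). The other lists held no call. After rescaling 37.5% of the calls were higher instead of 59.4%, and the list again held 6 called stress-response genes, all higher. Leaving out 1 library left 3 list genes called without PN96 replicate 1 or replicate 2, 5 without Chip replicate 1 and 6 without Chip replicate 2.

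SPIN and PN96 cortical organoids overlapped in CHCHD2, while 42.9% of all genes were called (20.1% higher and 22.8% lower, limma). Among the 21 CX9C and CHCH proteins, 5 were higher and 6 lower. NDUFB7, a complex I subunit, had 3.51 ± 3.82 TPM in SPIN and 324 ± 23.0 TPM in PN96 (SD, n = 2 each). The SPIN libraries had 6.21 and 0.811 TPM of NDUFB7, and every library outside SPIN had 96.3 TPM or more. Whether that reflects the cells or these libraries was not tested. CHCHD5 had 0.909 ± 0.347 TPM in SPIN and 14.7 ± 1.17 TPM in PN96. CHCHD6, a MICOS subunit, fell by 1.83 on the log2 scale, and CHCHD7 rose by 0.98. Of the 10 partners 6 were higher and 3 lower, led by the protease LONP1 at -1.74 and CXXC5 at -1.46, and by the proteases OMA1 at 1.24 and YME1L1 at 0.85. Of the 13 tested stress-response genes 5 were higher and 4 lower. The 42.9% called over all genes is the background against which these counts stand. Of CHCHD2's neighbours CCT6A rose by 0.63 on the log2 scale and PSPH fell by 0.38, the second not called after rescaling.

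Where CHCHD2 was near 0 on both sides, 2 contrasts were read as a background for the lists. Hepatic CTR against WT organoids at day 21 called 6.42% of all genes (limma), 2.47% higher and 3.95% lower, and the lists held GDF15 at 55.9 ± 1.10 TPM in CTR and 6.86 ± 1.68 TPM in WT (SD, n = 2 each), ATF4 higher by 0.62 and PSAT1 lower by 0.62 on the log2 scale. Rescaled values called 2 list genes there, both higher. Leaving out CTR replicate 1 or replicate 2 left no call in that comparison, among all genes or the lists, and leaving out WT replicate 2 left 350 of 1298 calls and leaving out WT replicate 1 gave 2001. The average of NEAT1-/- against CTR over 5 cell types called 1.18% of genes (limma), 0.598% higher and 0.586% lower, with ATF5 and PSAT1 higher by 0.42 and 0.29 on the log2 scale and no other list gene called. Neither was called with rescaled values or with no filter. Without lung CTR replicate 1 that average called 1271 genes.

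**Figure D3:**
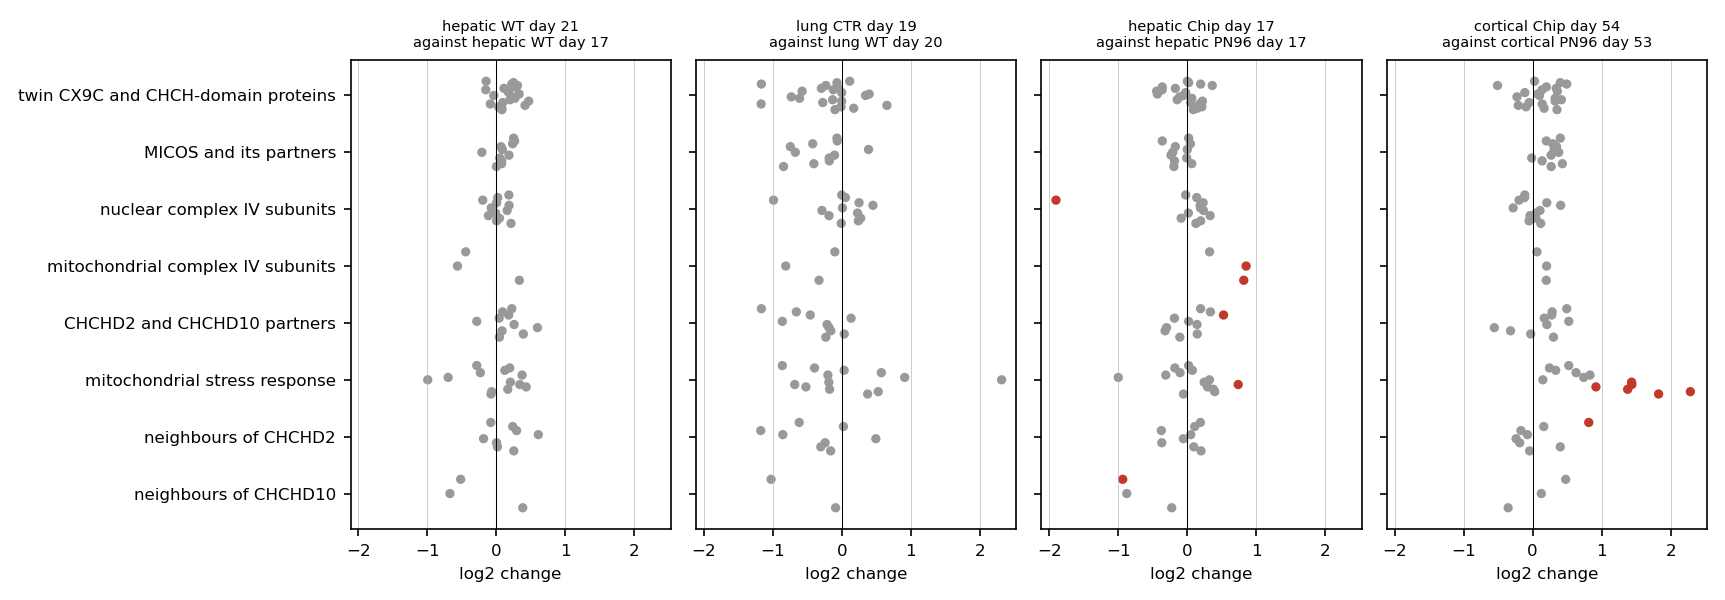
Log2 change of each tested list gene on the horizontal axes, with the 8 lists down the page and 4 comparisons from left to right. Red points passed an adjusted p under 0.05 (limma) and grey points did not. No point is red in the hepatic day and lung comparisons, where CHCHD2 lay under 1 TPM in the first group and at 70.2 TPM or more in the second. Over all genes 1.33% were called in the hepatic day and 0.0051% in the lung comparison. With so few calls at all, the lack of red points there is not read as a lack of change. In the cortical Chip comparison 6 stress-response genes are red, and 1.57% of all genes were called.

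Genes with the pattern most like CHCHD2 were ranked by Pearson's r of log2(TPM + 1) over the 31 group means, among 18209 genes with a symbol that reached 1 TPM in at least 2 of them. The r is a description and carries no p, since the groups share lines and processing and CHCHD2 itself falls into separate high and low groups. The 5 highest were TMLHE (0.95), MCTS2P (0.93), POGK (0.91), ZNF680 (0.90) and ZNF737 (0.89). TMLHE, the first enzyme of carnitine synthesis, had 2.91 to 8.83 TPM in the 14 libraries with high CHCHD2, 0.514 and 1.39 TPM in hepatic WT day 21, and 0 to 2.36 TPM in the 46 CTR, NEAT1-/- and hESC PF-127 libraries. MCTS2P, a retrocopy of MCTS1, had 10.96 to 34.3 TPM in those 14, 1.31 and 2.47 TPM in hepatic day 21, and 0 to 7.33 TPM in the 46. It shares sequence with its parent gene, which leaves its value uncertain. The zinc-finger genes ZNF680 and ZNF737 reached 10.5 and 7.10 TPM in the 14 libraries, against 1.54 and 1.23 TPM at most in the 46. None of these genes is on chromosome 7 near CHCHD2, though ZNF680 lies on the same chromosome from base 64519884.

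POGK, a zinc-finger protein derived from a transposase, differed less and, like TMLHE and MCTS2P, without overlap. It had 21.7 to 62.03 TPM in the 14 libraries, 14.6 and 17.6 TPM in hepatic WT day 21, and 12.8 to 19.8 TPM in the 46. The 3 lowest r belonged to SNX12 (-0.85), TCF7L2 (-0.85) and RAET1E-AS1 (-0.82). SNX12, a sorting nexin, had 84.5 to 140.4 TPM in the 14 libraries and 130.5 to 253 TPM in the 46. TCF7L2, a transcription factor of the Wnt pathway, had 9.79 to 29.2 TPM in the 14 and 23.7 to 42.4 TPM in the 46. For CHCHD10 no such ranking was made, since it reached 1 TPM in no group mean.

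**Figure D4:**
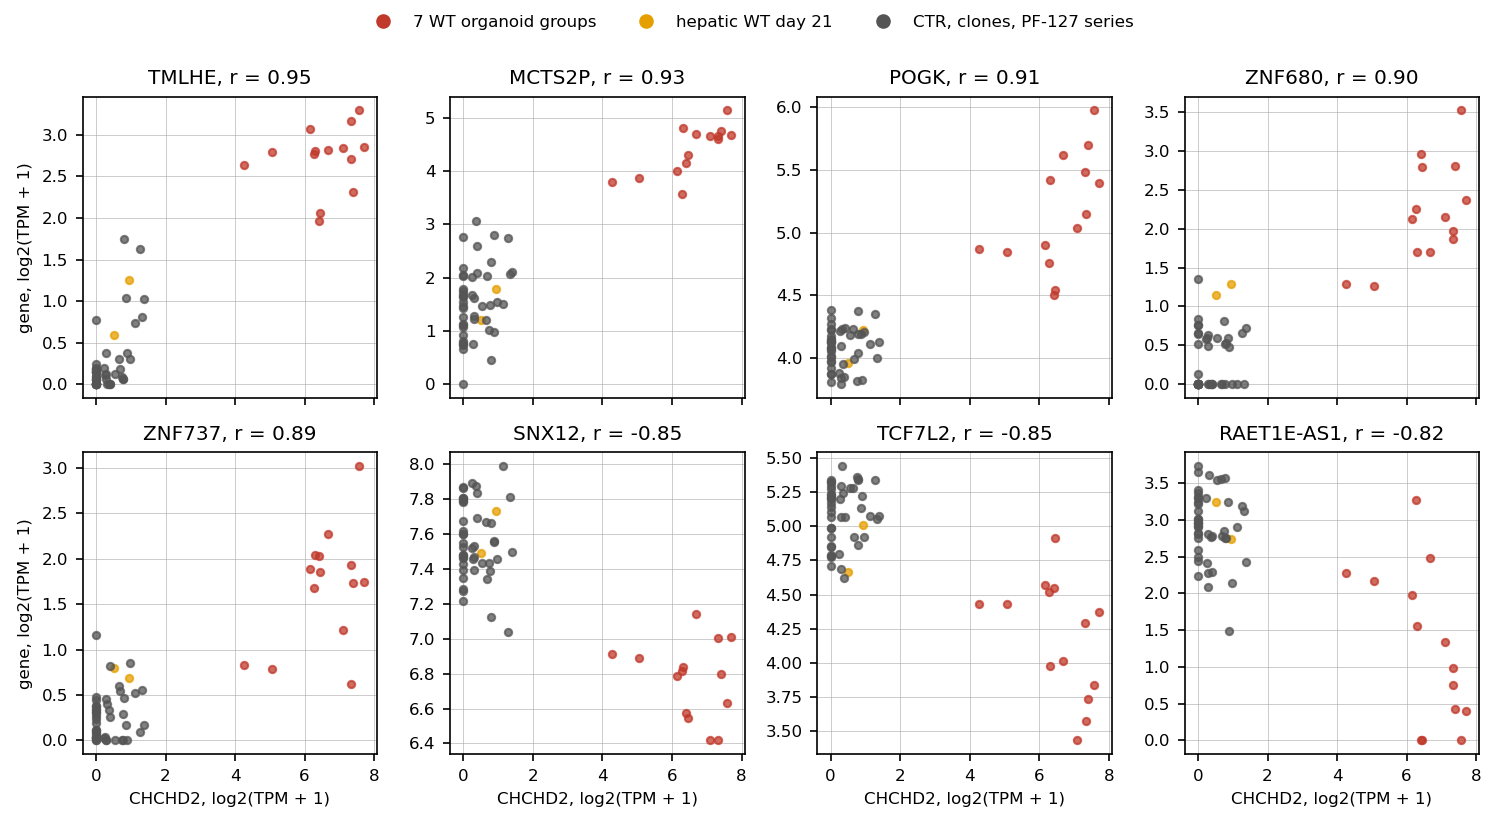
Each panel sets 1 gene against CHCHD2, both as log2(TPM + 1), over the 62 libraries; the first 5 have the highest and the last 3 the lowest r. Red points are the 14 libraries of the 7 WT organoid groups with high CHCHD2, orange the 2 of hepatic WT day 21 and grey the other 46. TMLHE (2.91 TPM or more against 2.36 or less), MCTS2P (10.96 against 7.33) and POGK (21.7 against 19.8) separate red from the rest without overlap. The genes were picked for their r with CHCHD2, so this separation is no independent result.

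POGK was not alone on its chromosome. Of the 50 genes with a position that had the highest r with CHCHD2, 11 lay on chromosome 1 between 160 and 170 Mb (22%), whereas 0.561% of the genes compared lay there. This region was singled out after its values were seen, so it has no test. In hepatic organoids its 70 genes of at least 5 TPM had a median log2 difference of -0.37 at day 21 against day 17, the second lowest of 244 bins of 10 Mb, beside 0.03 over all genes. The adjoining bins had 0.07 (150 to 160 Mb) and 0.25 (170 to 180 Mb). A run of 37 consecutive protein-coding genes, from COPA to MPZL1 (bases 160288686 to 167791919), was lower at day 21 without a break, with a median of -0.42. It was the longest run of lower genes among the 10880 genes placed in order. The longest run in either direction was 45 genes, higher, in the protocadherin cluster of chromosome 5, whose genes share exons.

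The size of that difference was small beside that of CHCHD2. USF1, a transcription factor gene in the run, had 25.2 and 25.1 TPM at day 21, against 41.6 and 32.7 TPM at day 17, and the galactosyltransferase gene B4GALT3 had 17.2 and 16.8 TPM at day 21, against 23.9 and 27.1 TPM at day 17. Neither gene overlapped between the days. In lung organoids the bin had a median of -0.27 in CTR against WT, the 12th lowest of 238, beside -0.07 over all genes. For CTR nephron organoids at day 13 against WT at day 7 it was -0.08, the 6th lowest of 246, beside 0.28 over all genes. The adjoining bins had 0.17 (150 to 160 Mb) and 0.76 (170 to 180 Mb) in that nephron pair. The bin did not stand low where CHCHD2 differed less. For Chip against PN96 hepatic organoids it had -0.05, beside -0.22 over all genes. It ranked 242nd from the lowest of 244 there, among the highest bins, although CHCHD2 was lower under Chip. For Chip against PN96 cortical organoids the bin had 0.09, beside 0.06, and ranked 152nd from the lowest of 249. Between hepatic CTR and WT organoids at day 21, both near 0 in CHCHD2, it was -0.04, equal to the median of all genes.

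Over the 31 groups the level of the region differed between the sets of libraries, in TPM that was not rescaled. Its 59 genes of at least 5 TPM were set relative to each gene's median over all groups, on the log2 scale. The median over these genes was 0.80 to 0.99 in the WT cortical groups, 0.20 to 0.22 in the WT nephron, lung, PN96 hepatic day 17 and Chip hepatic groups, and -0.03 in hepatic WT day 21. It was -0.09 to 0.18 in the CTR and NEAT1-/- groups and -0.40 to -0.24 in the hESC with or without PF-127. The median-of-ratios size factors were 0.777 to 0.872 in those hESC libraries and 1.24 to 1.40 in the WT cortical libraries. The part of this library-wide scaling in the levels was not tested. The 158 genes of the 10 Mb on either side had -0.24 to 0.23 in all 31 groups. Without rescaling, the highest CTR value, 0.18 in nephron organoids, came close to the 0.21 of WT nephron organoids. CHCHD2 was at 1.63 TPM or less in CTR and at 135.1 TPM or more in WT. In that pair the median of all genes was itself 0.28 higher in CTR, and the flanking genes had 0.15 in CTR and 0.04 in WT. These 2 levels alone therefore do not show that the region was alike. What moves the region, and whether it bears on CHCHD2, was not tested.

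**Figure D5:**
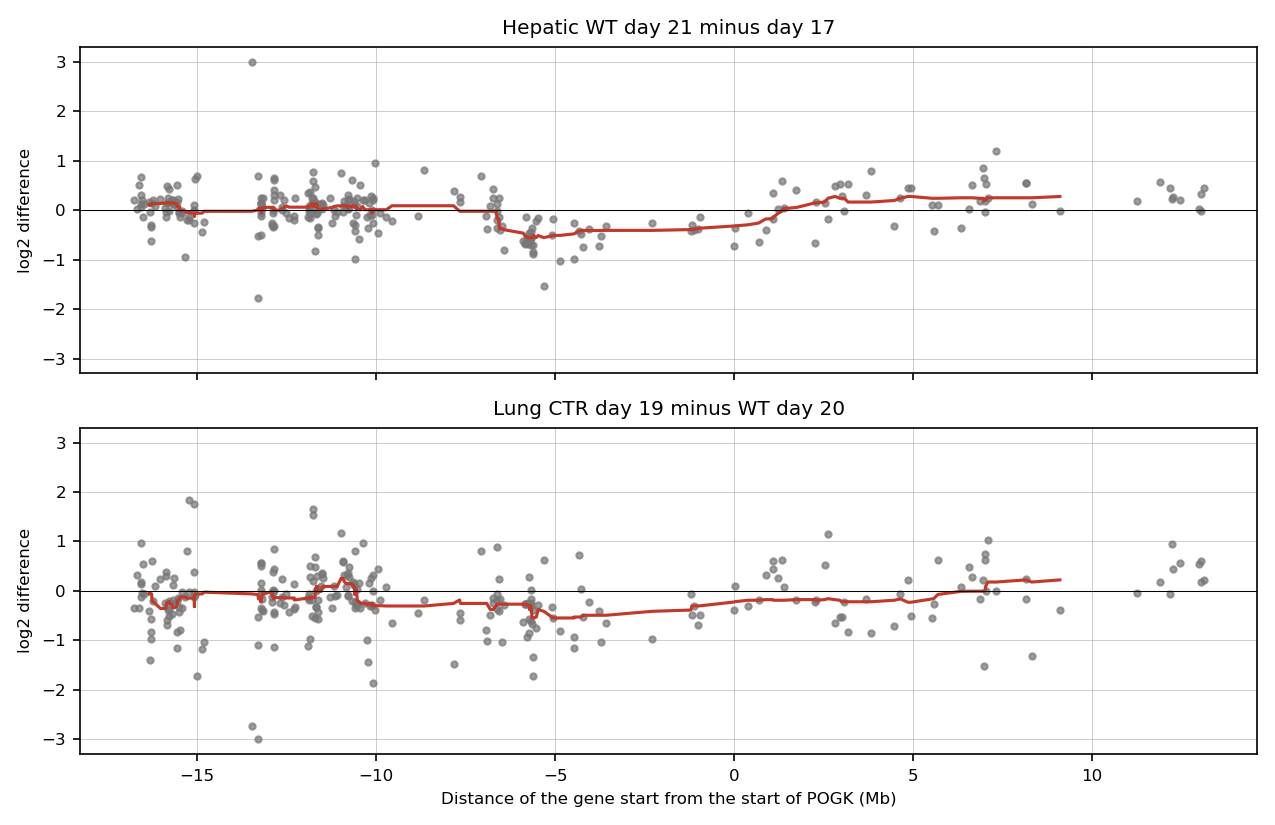
Log2 difference of single genes (grey points, those beyond 3 drawn at 3) against the distance of their start from that of POGK in Mb, with the median over 21 neighbouring genes in red. The upper panel is hepatic WT day 21 minus day 17 and the lower lung CTR day 19 minus WT day 20. In the upper panel the red line falls below 0 over the run of 37 genes and lies near or above 0 on either side.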

How the data were processed

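Expression was analysed from the authors' deposited table of TPM for 62 polyA RNA-seq libraries. Per the submitters' processing notes, the tools were FastQC 0.11.9, Trim Galore 0.6.7, cutadapt 4.1, STAR 2.7.10a, featureCounts 2.0.1 and DESeq2 1.36.0 in R 4.2.0, with GRCh38. The roles of these tools, and whether libraries were stranded, are not given in the sources used here. Values of antisense and overlapping genes, such as C22orf15, which shares 28 bases with CHCHD10, are therefore uncertain. The authors' deposited DESeq2 tables give a base mean (a count-based signal), a log2 fold change with its standard error, a test score and p-values for each clone against CTR; their scores and p-values are not printed. TPM keeps no depth, which is therefore unknown, and intervals for counting error are not given.

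Positions came from GENCODE release 29, which matched 33352 of 37415 identifiers, and upstream sequence from RefSeq. Both members matched. Groups were compared with limma 3.58.1 (R 4.3.3; trend, empirical Bayes) on log2(TPM + 1), two-sided, over genes at 1 TPM or more in at least 2 libraries of the fit (in each of the 5 cell types for the NEAT1 average). A log2 change on this scale understates that of low genes. Fits used the 16 WT organoid libraries, the 30 libraries of the knockout set, or the 4 of a pair. The code was tested on simulated data. Pseudogenes were aligned with blastn 2.17.0. Figures used matplotlib 3.10.9.

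The members and lists were chosen with earlier results of these data known. Named genes were both members, up to 4 called members of a list with the largest change or its first 2 where none was called, neighbours that reached 1 TPM, and the 5 highest and 3 lowest r. USF1, B4GALT3, CHCHD4, ATF4, DDIT3, COX4I2 where it was not called, and the genes near CHCHD10 that stayed under 1 TPM were named after their values were seen. Alternatives were a pseudocount of 0.1, no filter or one of 5 TPM, rescaled TPM, a replicate block, 1 fit of all 62 libraries, each clone alone and each library left out.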

Additional observations from a re-analysis of the deposited data

How the results depend on the processing

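CHCHD10, listed at 0 in 46 libraries, is too low for its alternatives to show stability. Where it did not pass the filter, a pseudocount of 0.1 changed its log2 difference for PF-127 against none to -0.42 averaged over times, -0.74 at 4 h and -0.93 at 24 h, for NEAT1-/- against CTR to 1.26 in cortical, 1.75 in nephron and -0.62 in hepatic cells and 0.45 on average, for CTR organoids against CTR hESC to 0.62 in hepatic and 1.47 in lung, and for hepatic CTR against WT to -0.28. Leaving out 1 library at a time gave -0.18 to 0 for NEAT1-/- against CTR in hepatic cells. It gave -0.75 to 0.52 for cortical Chip against PN96, turned to 0.40 without Chip replicate 1 and to 0.52 without PN96 replicate 2.

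List genes called moved as follows. In 1 fit of all 62 libraries they were 3 for hepatic day 21 against 17 (0 in its own fit), 28 for lung CTR against WT (0), 10 for hepatic Chip (6), 13 for cortical Chip (7), 14 for hepatic CTR against WT (3) and 5 for the NEAT1 average (2). Rescaled TPM gave 13 for hepatic Chip and 0 for the NEAT1 average, which had 1 with a pseudocount of 0.1, 0 with no filter, and 1 with clone 1 alone or clone 2 alone. Hepatic CTR against WT had 0 with no filter and 5 with the replicate block. Leaving out 1 library gave 0 to 1 for hepatic day 21 against 17, 0 to 12 for lung, 1 to 4 for hepatic Chip, 3 to 6 for cortical Chip, 33 to 43 for SPIN, 0 to 5 for hepatic CTR against WT and 0 to 3 for the NEAT1 average. These alternatives for the lists, other than the pseudocount and rescaling, and those for CHCHD2 were chosen after seeing the data.

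All genes called moved by more than 1.5 times in 1 fit of all libraries (hepatic day 21 against 17 1367, not 327; hepatic Chip 4304, not 2218; cortical Chip 1670, not 384; hepatic CTR against WT 5273, not 1298; lung 6889, not 1; NEAT1 average 580, not 192). They moved on rescaling for hepatic Chip (1134), cortical Chip (253) and lung (0), with a pseudocount of 0.1 for hepatic day 21 against 17 (175), hepatic CTR against WT (814) and lung (0), with no filter for hepatic CTR against WT (0), lung (0) and the NEAT1 average (425), and with clone 1 alone for that average (125). The share higher changed by over 10 points on rescaling also for hepatic day 21 against 17 (44.7%, not 57.8%), hepatic CTR against WT (53.2%, not 38.4%) and the NEAT1 average (34.7%, not 50.5%). Leaving out 1 library gave 14 to 153 calls for hepatic day 21 against 17, 296 to 1252 for hepatic Chip and 61 to 230 for cortical Chip, with 1 library fewer in the fit. The cause of the other changes was not tested.

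Same-numbered replicates deviated together weakly, with correlations of deviations of -0.30 for lung CTR and WT, 0.02 to 0.17 for the other WT organoid pairs and -0.10 to 0.39 for NEAT1-/- and CTR of one cell type. No label ties the numbers to a shared source, so they were not taken as pairs. A replicate block gave 262 calls for hepatic day 21 against 17, 1988 for hepatic Chip, 319 for cortical Chip, 10436 for SPIN, 1813 for hepatic CTR against WT, 183 for the NEAT1 average and 0 for lung. Crossed numbers in lung gave 2047 calls, 8 of them list genes. Depth is unknown, so values under about 1 TPM cannot be told from 0.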
